A study of Mus musculus with 6 samples.

Results

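IGHV5-2 (gene symbol Ighv5-2, also known as 81X) is a heavy-chain variable gene of the mouse immunoglobulin locus. Its members here are all sequences whose first V gene call, with the allele removed, was IGHV5-2. They number 3971 of the 228609 sequences in 6 libraries. Rearranged heavy-chain genes were read from genomic DNA of C57BL/6 splenic B cells at 12 weeks of age with VDJ-seq, which sequences rearranged genes in DNA rather than in transcripts. Other spleen cells were depleted on magnetic columns; RNA and protein markers were not measured, so the cell type was not checked. A DNA input series holds libraries of 500 ng, 1 µg, 2.5 µg and 5 µg, and the libraries Q5_vent and Q5_Q5 differ in the combination of DNA polymerases. Each library is the only one of its group, and the labels do not say whether any of them share a mouse. Values listed for the 6 libraries run in the order 500 ng, 1 µg, 2.5 µg, 5 µg, Q5_vent, Q5_Q5, called library order here. Depth ranged from 8704 sequences at 500 ng to 112320 at 5 µg. All intervals are 95% intervals that cover counting error only.

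A heavy-chain gene is assembled in B cell precursors by joining a D gene to a J gene and then a V gene to the DJ join. The RAG recombinase cuts the genes, nucleases trim their ends, and terminal transferase adds untemplated bases (N bases) between them. A join is productive when V and J share a reading frame with no stop codon. An out-of-frame join codes for no antibody and is kept in B cells that carry a productive join on the other allele. 81X is known as the functional V gene nearest the D genes, as one that rearranges often in precursors, and as one whose heavy chains often pair poorly with the surrogate light chain.

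In RefSeq's GRCm38.p6 annotation, Ighv5-2 is a V segment at chr12:113578504-113578990. The pseudogenes Ighv5-1 at chr12:113572929-113573222 and Ighv2-1 at chr12:113574247-113574540 lie between it and the D genes. The functional gene Ighv2-2 at chr12:113588267-113588700 follows on the far side. Ighd1-1, the main DFL16 gene, lies at chr12:113482170-113482192. The end of the V gene is shown because the joins below start from it, whole or shortened. The line gives its last 30 aligned bases, with the codon of the conserved cysteine before the CDR3 in capitals, and all 1640 mismatch-free joins that reached this end had the same bases.
IGHV5-2 end: ggacacagccttgtattacTGTgcaagaca

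The next 6 lines are the CDR3 bases, from just after that cysteine codon, of 6 of the 7 out-of-frame clones found in 3 or more libraries; the 7th, with 3 sequences like clones 5 and 6, came after them in alphabetical order. They are shown because they came up repeatedly in separate libraries. A clone is 1 combination of V gene, J gene and CDR3 bases. Capitals mark bases outside the aligned V, D and J segments in 1 sequence of the clone. In clone 4 that sequence was called as allele 03 with a V alignment past the end printed above, while other sequences of the clone were called as allele 01 and aligned to a shorter V end.
Out-of-frame clone 1, Ighd2-3 and Ighj3: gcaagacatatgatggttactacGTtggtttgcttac
Out-of-frame clone 2, Ighd1-1 and Ighj4: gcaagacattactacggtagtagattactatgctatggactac
Out-of-frame clone 3, Ighd6-1 and Ighj3: gcaagacatagccCCggtttgcttac
Out-of-frame clone 4, no D call and Ighj3: gcaagacgaGGAGGggtttgcttac
Out-of-frame clone 5, Ighd1-1 and Ighj1: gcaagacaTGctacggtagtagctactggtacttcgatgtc
Out-of-frame clone 6, Ighd2-1 and Ighj2: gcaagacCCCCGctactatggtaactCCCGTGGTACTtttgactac

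Only 4 productive clones held 2 or more sequences, and they are shown for contrast. Capitals again mark bases outside the aligned segments.
Productive clone 1, Ighd2-2 and Ighj4: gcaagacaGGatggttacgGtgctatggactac
Productive clone 2, Ighd1-1 and Ighj1: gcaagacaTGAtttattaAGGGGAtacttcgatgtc
Productive clone 3, Ighd2-4 and Ighj3: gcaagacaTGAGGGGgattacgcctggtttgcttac
Productive clone 4, Ighd4-1 and Ighj4: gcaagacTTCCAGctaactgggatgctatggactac

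The last line is the in-frame, non-productive clone found in the most libraries, with its 2 stop codons in capitals.
In-frame clone with stops, Ighd2-5 and Ighj2: gcaagacacctaTAGTAAgcctttgactac

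IGHV5-2 was a common gene among all sequences and the most common one among out-of-frame joins. In library order it made up 1.61%, 1.62%, 1.73%, 1.70%, 2.02% and 1.87% of sequences, which placed it between the 12th and the 19th of the V genes. Among out-of-frame joins it held 5.78%, 6.07%, 6.61%, 6.38%, 7.33% and 7.40% and came first in all 6 libraries. The next gene, Ighv2-2, held 3.55% of out-of-frame joins over all libraries against 6.54% for IGHV5-2. Among productive joins it fell between the 84th and the 88th place, with 0.0804% to 0.126% of them.

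Neither DNA amount nor the polymerases were associated with a called difference in how often the gene was seen. The share at 5 µg was 1.06 times that at 500 ng (interval 0.893 to 1.26). By the rule used for all genes, a ratio of at least 1.5-fold whose interval excluded 1, IGHV5-2 was not called, and 0.935% of 107 genes tested were. The share in Q5_Q5 was 0.927 times that in Q5_vent (interval 0.797 to 1.08); it was not called, and 0% of 84 genes were. With 1 library per group these ratios have no replicate check.

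Few IGHV5-2 joins were productive. In library order the productive share was 5.71% (8 of 140), 3.61% (10 of 277), 4.76% (46 of 967), 5.23% (100 of 1913), 4.33% (17 of 393) and 4.27% (12 of 281). In the same libraries 73.8% to 75.3% of the sequences of other V genes were productive, so the ranges lie far apart. Over all libraries 193 IGHV5-2 joins were productive, 451 were in frame but not productive, and 3327 were out of frame.

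The difference in productive share, IGHV5-2 minus other V genes, was -69.6 percentage points (interval -70.3 to -68.9), lower in 6 of 6 libraries. An exact two-sided sign-flip permutation test over the 6 within-library differences gave p = 0.03125, the smallest value that 6 libraries allow, and 0.0625 after Benjamini-Hochberg adjustment over the 44 comparisons tested in this way. Every comparison below with the same sign in all 6 libraries has these same values, so none passes 0.05 after adjustment. The intervals cover counting error only, without variation between animals or library preparations, and do not replace that test. Of 106 V genes with at least 200 sequences, 42.5% had an interval wholly below the other genes, by any margin. Being below the other genes was thus common, but a share as low as that of IGHV5-2, the 4th lowest, was not.

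**Figure D1:**
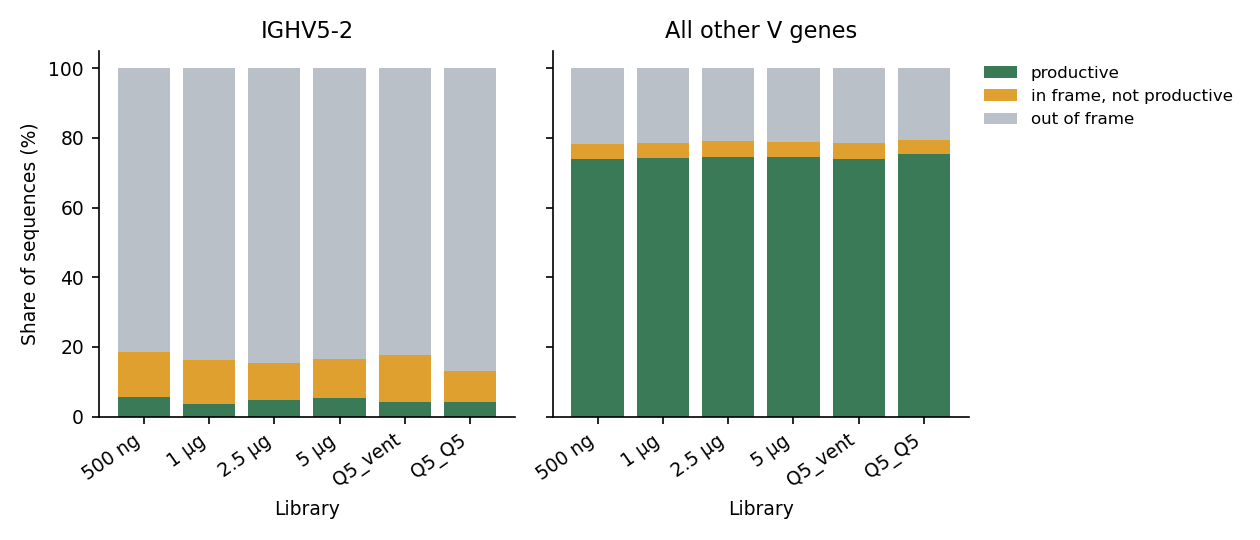
Stacked bars give the share of sequences (%) that were productive, in frame but not productive, and out of frame in each of the 6 libraries, for IGHV5-2 on the left and all other V genes on the right. The productive part of the IGHV5-2 bars lies between 3.61% and 5.71% and that of the other V genes between 73.8% and 75.3%.

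The 3 genes below it were the pseudogenes Ighv3-2 (0.143%) and Ighv1-27 (0.285%) and the V segment Ighv11-1 (1.92%). The nearest values belonged to Ighv1-23 (5.48%), Ighv1-11 (6.60%) and the nearby pseudogene Ighv5-1 (7.14%). Within its own family the other 11 Ighv5 genes with at least 100 sequences ran from 7.14% for Ighv5-1 to 86.2% for Ighv5-6-4, all above IGHV5-2. Ighv5-4, the next family member that is a V segment, was 61.4% productive. Against all other Ighv5 sequences the difference was -65.1 points (interval -66.0 to -64.1), lower in 6 of 6 libraries.

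In-frame, non-productive joins were a larger part of all IGHV5-2 sequences than of those of other V genes, and a smaller part of its non-productive ones. They made up 12.9%, 12.6%, 10.5%, 11.4%, 13.2% and 8.90% of its sequences in library order, against 4.02% to 4.51% for other V genes. The difference was 7.0 points (interval 6.01 to 7.99), higher in 6 of 6 libraries. Among non-productive joins alone they were 451 of 3778 (11.9%), against 17.1% of 57376 in other V genes, a difference of -5.13 points (interval -6.21 to -4.05; lower in 6 of 6 libraries). With other Ighv5 genes as the reference it was -2.39 points (interval -3.82 to -0.951). The first stop codon of these 451 joins lay wholly inside the D segment in 77.2%, against 58.9% of 9791 in-frame, non-productive joins of other V genes. No stop was found in the CDR3 of 1.77% and 12.6% of them, and without those the shares inside D were 78.6% and 67.4%. The printed in-frame clone is of this kind, with both stops within the bases of its D gene.

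D genes of the DSP2 and DFL16 families can be read in 3 frames, of which frame 3, starting at D base 3, is the tyrosine-rich one and frame 2 holds the stop codons. Of the 552 in-frame IGHV5-2 joins with such a D gene, 65.4% used frame 2 (interval 61.3% to 69.2%) and 29.2% used frame 3. Frame 2 was in 12.3% of such joins of other V genes and 13.1% of those of other Ighv5 genes. These shares mix productive and non-productive joins, 142 and 410 for IGHV5-2, so they depend on its low productive share. Among the 142 productive ones, 119 (83.8%, interval 76.9% to 89.0%) used frame 3, against 77.8% for other V genes. That difference of 6.02 points had an interval from 0.00645 to 12.0 and the same sign in 4 of 6 libraries (exact sign-flip permutation p = 0.156), so it is at the limit of what 142 joins can show. It was 3.08 points without the 5 µg library and 10.2 without the 2.5 µg one, and its interval also includes 0 without the 500 ng, 1 µg or Q5_vent library. Among in-frame, non-productive joins with such a D gene, frame 2 was used in 85.6% for IGHV5-2 and 71.3% for other V genes. The difference was 14.3 points (interval 10.8 to 17.8), with the same sign in 6 of 6 libraries. A frame 2 majority follows from taking non-productive joins, as frame 2 holds the stop codons. Of all in-frame, non-productive joins, 1.77% for IGHV5-2 and 12.6% for other V genes had no CDR3 stop. How this affects the difference was not tested.

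The D partners of out-of-frame joins, which are not selected for the protein they code for, differed from those of other V genes. DFL16 genes were in 26.3%, 21.6%, 20.02%, 21.6%, 20.1% and 26.2% of them in library order. Other V genes had 38.8% to 39.9%, and the ranges did not overlap. The difference was -18.1 points (interval -19.5 to -16.6), the second lowest share of 102 V genes with at least 100 out-of-frame joins, of which 7.84% had an interval below the other genes. Against other Ighv5 genes alone it was -11.6 points (interval -13.6 to -9.54).

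DSP2 genes, the largest D family, took most of the remainder. Their share was 55.3%, 60.8%, 60.3%, 58.7%, 61.7% and 55.3% in library order, against 46.6% to 47.8% for other V genes. The difference was 12.2 points (interval 10.5 to 13.9), higher in 6 of 6 libraries, where 9.80% of 102 genes had an interval above the others. The high DSP2 share was not particular to IGHV5-2 (59.2% over all libraries). Nearby genes had 57.6% (Ighv5-1), 59.1% (Ighv2-2) and 59.8% (Ighv5-4). DST4 genes were in 6.76% of out-of-frame IGHV5-2 joins against 4.11% (difference 2.65 points, interval 1.78 to 3.52; 6 of 6 libraries). The DSP2 difference was 6.44 points against other Ighv5 genes alone. Over joins whose call named a single D gene it was 6.01 points, with 8.24 points for DST4. All of these intervals exclude 0. Leaving out joins with several D genes named changes the total behind each share, so the single-call values describe another set of joins.

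DQ52 (Ighd4-1), the D gene nearest the J genes, was in 4.84% against 4.04%, with an interval of the difference from 0.0418 to 1.54 points and the same sign in 5 of 6 libraries. Without the 2.5 µg, 5 µg or Q5_Q5 library that interval includes 0 (0.751, 0.737 and 0.663 points), and over single D gene calls the difference was 4.79 points. A D gene was not called in 6.34% against 4.35%, a difference of 1.99 points (interval 1.15 to 2.84), or 1.08 points against other Ighv5 genes alone. Among single D genes, the DFL16 gene Ighd1-1 was in 20.6% of out-of-frame IGHV5-2 joins and 38.3% of those of other V genes. Single DSP2 genes did not all follow their family. Ighd2-4 was in 18.6% and 13.9%, and Ighd2-5 in 12.8% and 8.82%. Ighd2-2 was in 6.40% and 3.59%, Ighd2-1 in 7.94% and 7.48%, and Ighd2-3, in the other direction, in 9.20% and 10.03%. Of the IGHV5-2 sequences with a D call, 57.9% named several D genes, so values for single DSP2 genes are less certain than those for families. Ighd2-1 and Ighd2-2 are absent from the RefSeq annotation of C57BL/6, so their presence in these mice is not established. The calls of the out-of-frame clone printed with Ighd2-1 and the productive clone printed with Ighd2-2 also named several D genes. So did those of the clones printed with Ighd6-1, Ighd2-4 and Ighd2-5.

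**Figure D2:**
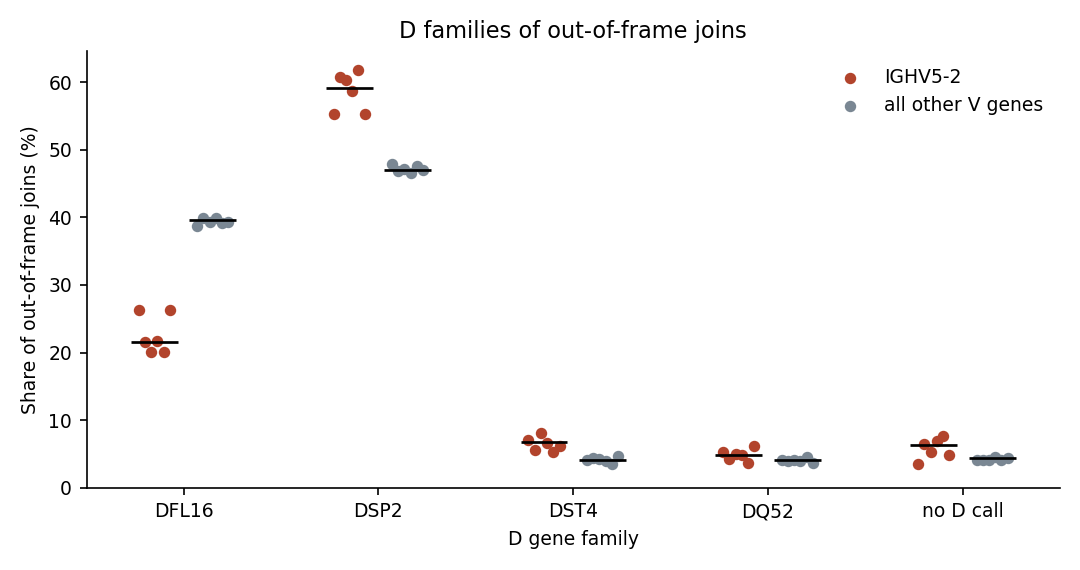
Points give the share (%) of out-of-frame joins that used each D gene family in each of the 6 libraries, for IGHV5-2 and for all other V genes, and black lines give the share over all libraries. The DFL16 points of IGHV5-2 lie between 20.02% and 26.3%, below the 38.8% to 39.9% of other V genes, and the DSP2 points lie above.

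The V genes nearest the D cluster had low DFL16 shares. Along the locus from the D side, the share of out-of-frame joins with DFL16 was 18.2% for Ighv5-1 (interval 13.2% to 24.7%), 21.6% for IGHV5-2 (20.2% to 23.0%), 27.2% for Ighv2-2 (25.2% to 29.3%) and 26.3% for Ighv5-4 (23.8% to 28.8%). The interval of Ighv5-1 covers the IGHV5-2 value, and those of Ighv2-2 and Ighv5-4 do not. Against Ighv2-2 and Ighv5-4 together, the DFL16 share of IGHV5-2 differed by -5.28 points (interval -7.40 to -3.16), lower in 6 of 6 libraries. These reference genes were chosen after their values were seen. Genes a little farther out varied: Ighv2-4, 74.8 kb beyond IGHV5-2, had 51.8% (interval 45.3% to 58.2%), and Ighv2-6, 138 kb beyond, had 28.2% (25.0% to 31.6%); both were named after their values were seen.

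In 4 groups of 24 or 25 neighbouring genes the median share was 38.4%, 40.2%, 42.0% and 41.8%, from the D side outwards. Over 98 genes with a RefSeq position, Pearson's r between the share and the distance was 0.413 and Spearman's rho 0.386. The points come from the same 6 libraries and include genes of one family, so these are given as a description.

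**Figure D3:**
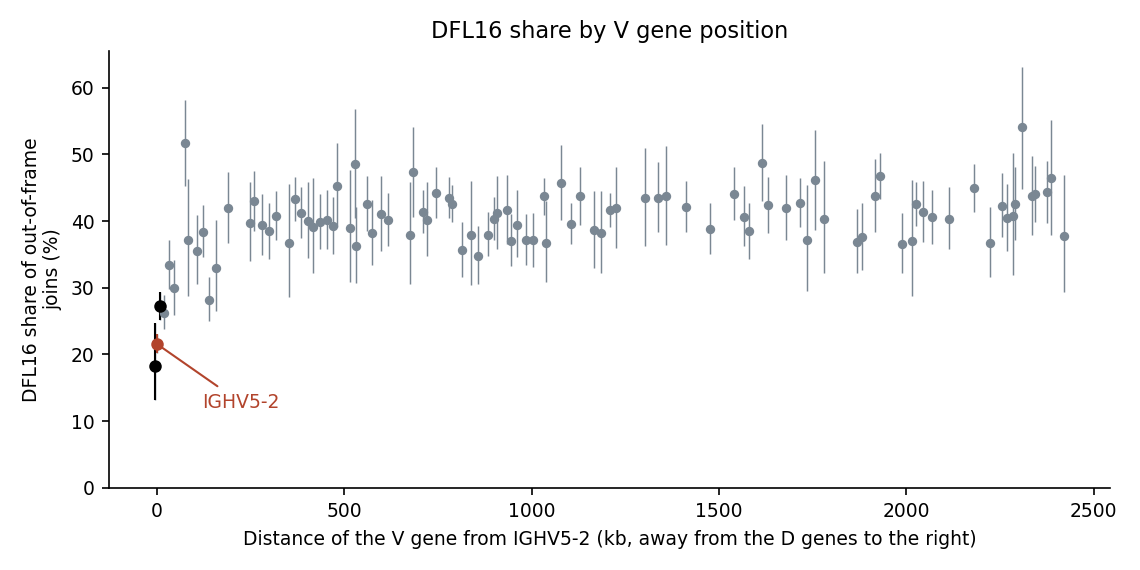
Each point is 1 V gene with at least 100 out-of-frame joins, placed by its distance from IGHV5-2 (kb) and by the share (%) of its out-of-frame joins with a DFL16 gene; bars are 95% Wilson intervals. IGHV5-2 (21.6%, red) and the black points of Ighv5-1 (18.2%) and Ighv2-2 (27.2%) lie at the low end on the left, and the median of the outermost 24 genes is 41.8%.

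J partners of out-of-frame joins differed less. Ighj1 was used in 8.77%, 11.6%, 13.1%, 11.5%, 12.3% and 13.1% in library order, and in 16.6% of those of other V genes over all libraries. The difference was -4.55 points (interval -5.70 to -3.39), lower in 6 of 6 libraries, and 9.80% of 102 genes had an interval below the others. Ighj2 was in 34.9% against 31.2%, a difference of 3.71 points (interval 2.03 to 5.38; 6 of 6 libraries).

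The differences in the other two J genes did not have the same sign in all libraries. Ighj3 was in 32.1% against 29.7% (2.45 points, interval 0.814 to 4.09), with the same sign in 4 of 6 libraries (exact sign-flip permutation p = 0.188). Without the 5 µg library that difference was 1.43 points, with an interval from -0.816 to 3.68. Ighj4 was in 20.9% against 22.6% (-1.61 points, interval -3.05 to -0.180), with the same sign in 4 of 6 libraries (exact p = 0.688). Without the 5 µg library it was -0.712 points, and without Q5_Q5 -1.41 points, both with intervals that include 0.

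The 193 productive joins used J genes differently from the out-of-frame ones, most of all Ighj2. In library order Ighj2 was in 0 of 8, 0 of 10, 4 of 46, 8 of 100, 1 of 17 and 3 of 12 productive joins. The share was below that of the out-of-frame joins of the same library in every case, although Q5_Q5, at 25.0%, stood above the other libraries. Over all libraries Ighj2 was in 16 of 193 productive joins (8.29%) and in 34.9% of out-of-frame ones, a difference of -26.6 points (interval -30.8 to -22.3).

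Other V genes showed a smaller step. Their Ighj2 share in productive joins minus that in out-of-frame joins was -2.54 points (interval -3.01 to -2.07), and the 2 steps differed by -24.0 points (interval -28.2 to -19.8). Ighj1 moved the other way: it was in 63 productive IGHV5-2 joins (32.6%) and in 12.0% of out-of-frame ones, 20.7 points more (interval 13.9 to 27.4; 6 of 6 libraries), against a step of 3.16 points in other V genes. The 2 Ighj1 steps differed by 17.5 points (interval 10.8 to 24.3). Among productive joins alone, IGHV5-2 differed from other V genes by -20.3 points of Ighj2 (interval -24.2 to -16.4) and by 12.9 points of Ighj1 (interval 6.22 to 19.5).

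Ighj3 was in 30.6% of productive and 32.1% of out-of-frame IGHV5-2 joins, a difference of -1.66 points (interval -8.30 to 4.97), and its step minus that of other V genes was 4.88 points (interval -1.77 to 11.5). Ighj4 was in 28.5% and 20.9%, a difference of 7.53 points (interval 0.957 to 14.1) with the same sign in only 4 of 6 libraries. Other V genes had an Ighj4 step of 5.93 points, and the 2 steps differed by 1.60 points (interval -4.98 to 8.18). The interval of the Ighj4 difference of 7.53 points includes 0 without the 2.5 µg library (5.72 points) or the 5 µg library (6.63 points). In the 500 ng library, with 8 productive joins, single joins move these shares by more than 10 points.

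**Figure D4:**
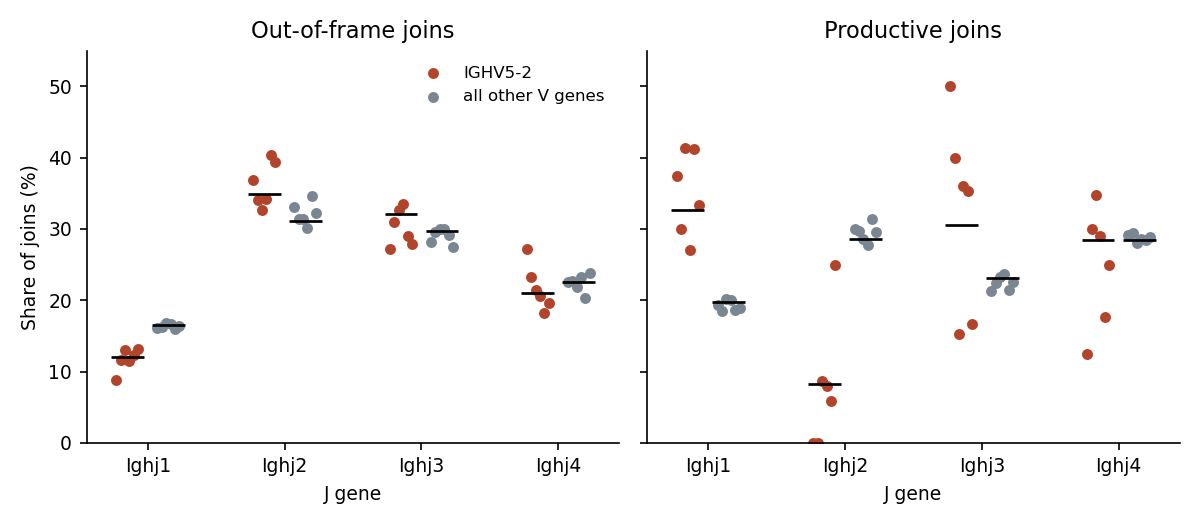
Points give the share (%) of joins with each J gene in each of the 6 libraries, out-of-frame joins on the left and productive joins on the right, and black lines give the share over all libraries. The Ighj2 line of IGHV5-2 is at 34.9% on the left and 8.29% on the right, while that of other V genes is at 31.2% and 28.6%; the productive IGHV5-2 points rest on as few as 8 joins in a library.

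Among productive IGHV5-2 joins the DFL16 share was 25.9%, a difference of -14.1 points from other productive joins (interval -20.3 to -7.87; lower in 6 of 6 libraries). Its 50 joins were spread unevenly over the J genes, with 24 to Ighj1, 8 to Ighj2, 11 to Ighj3 and 7 to Ighj4. DSP2 was in 92 joins (47.7%), of which 23 went to Ighj1, 5 to Ighj2, 36 to Ighj3 and 28 to Ighj4. Against the out-of-frame IGHV5-2 joins, DSP2 differed by -11.4 points (interval -18.7 to -4.12; lower in 5 of 6 libraries) and DQ52, at 12.4%, by 7.59 points (interval 2.82 to 12.3; 5 of 6 libraries). The DFL16 shares of the 2 classes differed by 4.31 points, with an interval from -2.07 to 10.7. Other V genes had steps of -7.35 points for DSP2 and 2.89 points for DQ52. The steps of IGHV5-2 minus these were -4.05 points (interval -11.4 to 3.24) and 4.70 points (interval -0.0657 to 9.47), so neither was shown to differ from that of other V genes. Without the 2.5 µg library the DSP2 difference was -8.33 points with an interval that reaches 0.0571. Over single D gene calls it was 1.86 points (interval -7.36 to 11.1), the DFL16 difference was -7.83 and the DQ52 difference 12.4. The DSP2 and DFL16 differences thus changed sign in that setting. It leaves out all joins whose call named several D genes, which changes the total behind each share. These values therefore describe another set of joins and are no check on the family shares over all calls.

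The V to D side of out-of-frame IGHV5-2 joins held fewer added bases. Between the aligned V and D segments there were on average 3.78, 3.26, 3.596, 3.51, 3.56 and 3.72 bases in library order. Other V genes averaged 4.38 to 4.56, so the ranges did not overlap. The difference was -0.881 bases (interval -0.993 to -0.770), a direction shared by 31.4% of 102 V genes by the same rule.

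No base at all between V and D was seen in 19.2% of these joins, against 9.95% in other V genes. Ighv2-2 and Ighv5-4, the next functional genes, averaged 4.22 bases, and IGHV5-2 differed from them by -0.675 bases (interval -0.837 to -0.512; fewer in 6 of 6 libraries). Other genes near the D cluster were closer to IGHV5-2, with 3.70 bases for Ighv5-1, 3.74 for Ighv5-6 and 3.84 for Ighv2-3, the last pair named after their values were seen. Over the 98 placed genes Pearson's r between this mean and the distance was 0.309 and Spearman's rho 0.494, again a description. On the D to J side the means were 3.61 and 3.54 bases, and the difference of 0.0704 had an interval from -0.0312 to 0.172. No bases on either side were seen in 2.57% of out-of-frame joins with a D call, against 1.54%, a difference of 1.03 points (interval 0.461 to 1.59). It held in 5 of 6 libraries (exact sign-flip permutation p = 0.156), and 4.90% of 102 genes were called on this measure. Over single D gene calls it was 1.62 points. Out-of-frame clone 2 above is such a join.

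**Figure D5:**
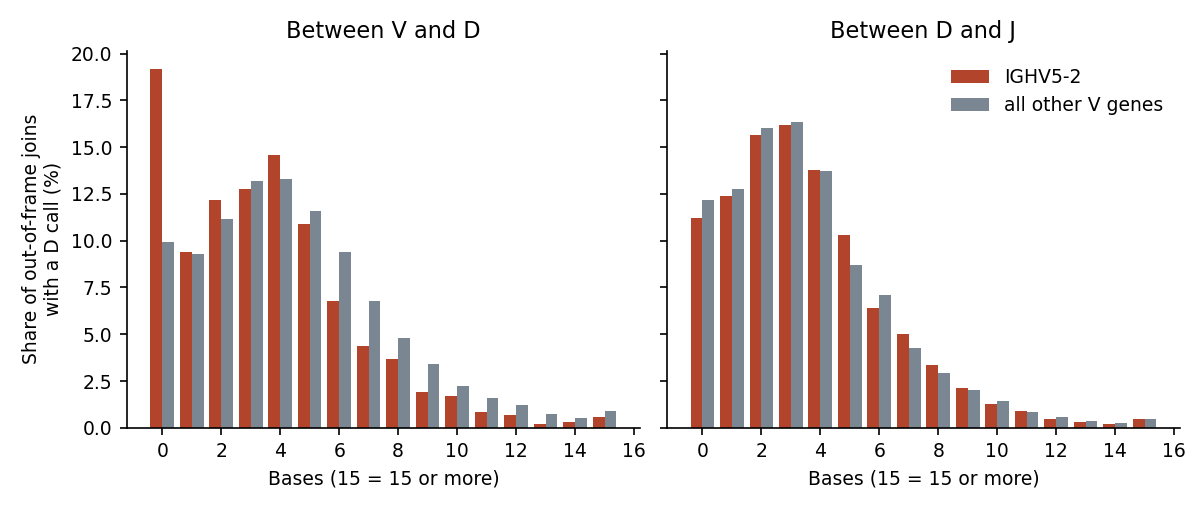
Bars give the share (%) of out-of-frame joins with a D call by the number of bases between aligned V and D (left) and between aligned D and J (right), for IGHV5-2 and for all other V genes. At 0 bases on the left IGHV5-2 stands at 19.2% and other V genes at 9.95%; on the right the values are 11.2% and 12.2%.

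The V gene itself most often kept its last base. Of the IGHV5-2 sequences, 47.0% were aligned to the last base of the printed end, 25.6% lacked 1 base, 11.3% lacked 2 and 7.43% lacked 4 or more. Out-of-frame joins lacked 1.19 bases on average against 1.04 in other Ighv5 genes, a difference of 0.144 (interval 0.0528 to 0.234; 6 of 6 libraries). Productive joins reached the last base more often, in 60.1% (interval 53.1% to 66.8%), and the bases they lacked differed from out-of-frame joins by -0.423 (interval -0.589 to -0.257; fewer in 5 of 6 libraries).

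When the V gene was complete and bases followed before the D segment, the first of them was T in 53.7% of 1349 joins (interval 51.1% to 56.4%). After a shortened V end it was T in 21.4% of 1614 joins (interval 19.4% to 23.4%), and G was the most frequent, at 37.9%. A T is also what palindromic (P) bases would add after the closing A of the printed end; whether these are P or N bases was not tested. The printed end leaves the first 2 bases of the third CDR3 codon, CA, so that T or C in the next place gives histidine and A or G gives glutamine.

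Histidine was the third CDR3 residue in 84 of 193 productive joins (43.5%, interval 36.7% to 50.6%). It was in 22.8% of 451 in-frame, non-productive joins and in 28.7% of out-of-frame joins read in the V frame. Glutamine, by contrast, was at 15.5%, 15.3% and 15.97% in these classes, within each other's intervals. Proline was at 4.15% of productive and 12.9% of out-of-frame joins, and the intervals (2.12% to 7.96% and 11.8% to 14.1%) do not overlap. Glycine was at 8.29% and 2.68%, again without overlap. Arginine was at 7.77% and 13.6%, with intervals that all but meet (4.77% to 12.43% and 12.44% to 14.77%).

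Productive CDR3s were slightly shorter than those of other V genes. Their mean length was 36.8, 36.3, 37.4, 35.9, 36.7 and 37.5 bases in library order. Over all libraries it was 36.5 against 37.9 bases, a difference of -1.44 (interval -2.24 to -0.652; 6 of 6 libraries), and without the 5 µg library -0.825 with an interval that includes 0. Lengths of 33 and 36 bases held 50 and 56 of the 193 joins (25.9% and 29.0%), against 15.9% and 16.7% in other V genes.

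Productive IGHV5-2 joins had 3.0 bases between V and D and 2.77 between D and J. The difference from out-of-frame joins on the V to D side was -0.543 (interval -0.966 to -0.120; fewer in 5 of 6 libraries), which without the 5 µg library was -0.350 with an interval that includes 0. On the D to J side it was -0.848 (interval -1.23 to -0.464; fewer in 6 of 6 libraries), or -0.543 over single D gene calls. The mean number of tyrosines in a productive CDR3 was 2.19 ± 1.07 (SD over 193 sequences) for IGHV5-2 and 2.68 ± 1.34 for other V genes.

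V gene mismatches were about as frequent as elsewhere. Of the IGHV5-2 sequences, 8.36% held at least 1 mismatch against 7.97% for other V genes, and the difference of 0.417 points had an interval from -0.451 to 1.29. In 100 sequences the call named allele 03, and 99.0% of these held a mismatch, against 4.84% of the 2791 sequences whose call named alleles 01 and 02 together and 9.02% of the 1064 called as 01 alone.

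IGHV5-2 clones came back in several libraries more often than those of most V genes. The 3971 sequences formed 3786 clones, of which 79 were found in 2 libraries, 7 in 3 and 1 in 5. These 87 clones are 2.298% of all (interval 1.87% to 2.83%), against 0.755% of 219066 clones of other V genes, a ratio of 3.04 (interval 2.46 to 3.76). Of 106 V genes, 12.3% had a ratio with an interval above 1, and IGHV5-2 had the 3rd highest share.

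Among out-of-frame clones 73 of 3166 recurred (2.31%), against 0.826% in other V genes (ratio 2.79, interval 2.18 to 3.58). Against the out-of-frame clones of other Ighv5 genes, of which 1.62% recurred, the ratio was 1.42 (interval 1.02 to 1.98). With clones lacking bases between segments left out, that last ratio was 1.39 (interval 0.996 to 1.94). Of 189 productive IGHV5-2 clones, 1 recurred, the first of the productive clones printed above, and the ratio to other productive clones of 0.717 had an interval from 0.101 to 5.06. Clones lacking bases between segments were 2 of the 87 recurring clones and 81 of the 3699 others, 2.299% and 2.19%.

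Out-of-frame clone 1 was found in 5 of 6 libraries. In library order it had 1, 0, 4, 8, 4 and 2 sequences, which together carried 19 different molecular identifiers, random 12-base tags meant to mark single DNA molecules. Its 2 bases outside the aligned segments lie between D and J. Out-of-frame clone 2 had 2 sequences at 2.5 µg, 6 at 5 µg and 2 in Q5_vent, with 10 identifiers.

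Clones 3 to 6 had 3 or 4 sequences each over 3 libraries, and the in-frame clone with stops had 4. Clone 6 carries 5 bases between V and D and 11 between D and J, and was seen once each at 5 µg, in Q5_vent and in Q5_Q5. No recurring clone held the same identifier in 2 libraries (0 of 87), and 70 of the 87 (80.5%) included a sequence of the 5 µg library, the deepest one. Cells shared through a common mouse and separate joins with the same bases cannot be told apart here, since which libraries share an animal is unknown.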

How the data were processed

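VDJ-seq libraries of genomic DNA were trimmed and aligned with tools that the submitters' processing notes name as Trim Galore 0.4.4 and Bowtie2 2.3.2, with mm10 as the genome build. No source used here names the V, D and J caller. Per the file headers, each row is 1 deduplicated sequence with V, D and J calls, frame and productive flags, segment lengths in bases, and V identity as a fraction from 0 to 1. The number of reads per sequence was inferred from the trailing number of the sequence names.

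Sequences were assigned by the first V call. The family of the first D gene named was used. Mismatches were read from the deposited alignment. IGHV5-2 was set against other V genes within each library. Differences were combined with inverse-variance weights, with 95% normal intervals and an exact two-sided sign-flip permutation test. Shares carry Wilson and ratios Katz intervals. The scripts were tested on simulated data. The last V base is base 296 of the numbered V gene, the most frequent aligned end; for other Ighv5 genes the end is the farthest position that at least 5% of a gene's sequences reach. Measures of bases between segments need a D call. Gene positions came from RefSeq, GRCm38.p6, which held 135 of 176 V names. Where no sequence was seen, 3 counts give an upper limit, which is 0.0345% of the 500 ng library and 0.00267% of the 5 µg one. Sequences of PCR products with an identifier are not proven single molecules, so intervals cover counting error only.

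The gene and the lists were chosen with earlier results of these data known. Named were the 5 V genes with the lowest productive share and the 3 nearest to IGHV5-2 (at least 200 sequences), the highest and lowest Ighv5 genes, the neighbours Ighv5-1, Ighv2-2 and Ighv5-4, all J genes and D families, D genes in at least 5% of IGHV5-2 joins, and the clones in most libraries. Productive J and D shares against other V genes, D reading frames, the in-frame share of non-productive joins, first added bases, residues after the V end and the neighbour references were added after seeing the data. Statistics used SciPy 1.17.1 and NumPy 2.4.6 in Python 3.11.15, tables pandas 2.3.3 and figures matplotlib 3.10.9.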

Additional observations from a re-analysis of the deposited data

Results flagged for a closer look

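The Ighj1 share of out-of-frame IGHV5-2 joins was 8.77% in the 500 ng library (10 of 114 joins), set apart from the other 5 libraries at 11.5% to 13.1% by more than Dixon's limit for 6 values. This was 1 of 17 measures examined, and chance alone sets apart about 1 in 20.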

How the results depend on the processing

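Of 535 values recomputed for 47 results under alternatives, 481 kept their direction and their side of the threshold (an interval excluding no difference). The low productive share, and in out-of-frame joins the DFL16, DSP2, DST4, Ighj1 and Ighj2 shares and the V to D bases, did so in every alternative run. For the results that did not, the cause was not tested. Unclear primer tags were more frequent among IGHV5-2 sequences, at 17.0% to 21.4% by library. Other V genes had 8.03% to 12.8% and other Ighv5 genes 6.93% to 11.6%. In out-of-frame joins, IGHV5-2 minus other V genes, Ighj3 gave 0.550 points with other Ighv5 genes as reference and 1.51 without recurring clones; Ighj4 gave -1.20 with at least 5 reads and -0.120 against other Ighv5 genes; DQ52 gave 0.708 without unclear primer tags and 0.740 with at least 5 reads; the D to J bases gave 0.115 without recurring clones and -0.0647 with single D calls. In productive minus out-of-frame IGHV5-2 joins, Ighj4 gave 5.47 without unclear tags and 4.21 with at least 5 reads, DFL16 gave 7.76 with at least 5 reads and -7.83 with single D calls, DSP2 gave 1.86 with single D calls, and the V to D bases gave -0.427 without unclear tags. V mismatches against other Ighv5 genes gave -0.891 points. In productive joins against other V genes, Ighj4 gave 0.0686 with single V calls and DST4 gave 0.542 against other Ighv5 genes. The recurrence ratio of productive clones was 0.720, counting sequences by their own flag. Leaving out each library in turn gave, for out-of-frame joins, 1.43 to 2.73 points for Ighj3, -2.04 to -0.712 for Ighj4 and 0.663 to 0.967 for DQ52. It gave -1.71 to -0.825 bases for productive CDR3 length. For productive minus out-of-frame joins it gave -6.04 to 3.31 for Ighj3, 5.72 to 8.48 for Ighj4, -13.3 to -8.33 for DSP2, -1.57 to 0.404 for DST4 and -0.645 to -0.350 V to D bases. For productive joins against other V genes it gave -2.12 to 1.04 for Ighj4 and -0.9997 to 0.316 for DST4. Only 193 productive joins were read, 8 to 100 in a library, which limits every productive comparison.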
